A study of Mus musculus with 6 samples.

Results

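The genes of cholesterol synthesis, uptake and efflux were followed in 6 single-cell RNA-seq libraries of sorted adult mouse brain cells. The 32 genes were chosen by symbol from a list of the pathway, and all 32 were found among the 32285 genes counted. They comprise 18 enzymes of synthesis, 5 regulators, 5 genes of uptake, intracellular transport and storage, and 4 genes of efflux and its control. The study deals with connexin 43, the gap junction protein encoded by Gja1, in the contact between vessels and neural stem cells of the subventricular zone. Control mice had the genotype Cx43flox/flox, and the other groups were labelled Cx43GlastiKO and Cx43ECiKO, with 2 libraries per group that the labels call biological replicates. All mice were 8 to 12 weeks old, and all libraries came from cortex and subventricular zone digested for 30 min at 37 °C and sorted into CD31+Glast- and Glast+CD31- cells, both without CD45. The inducing agent, the Cre lines beyond the words Glast and Vecad, and the number of mice per library are not given in the sources used here.

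Cells make cholesterol from acetyl-CoA through mevalonate, farnesyl diphosphate, squalene and lanosterol, and a last set of enzymes turns lanosterol into cholesterol. The transcription factor SREBP-2, escorted by Scap and held back by the Insig proteins when sterols are plentiful, switches these enzymes on together. Little lipoprotein cholesterol crosses the blood-brain barrier, so brain cells make their own. Astrocytes release part of theirs on ApoE particles loaded by ABC transporters, and oligodendrocytes place large amounts in myelin.

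Promoters are shown for 5 genes whose levels differed between cell classes in opposite directions. The RefSeq promoter table for GRCm38.p6 held 26 of the 32 genes, and the 250 bases before each start were searched on both strands for 3 motifs. The first was the sterol regulatory element, spelled TCACNCCAC, which SREBP reads. The second was the CCAAT box, spelled CCAAT, which NF-Y reads, and the third was the E-box CACGTG. Each window below runs 5′ to 3′ on the gene's own strand, and capitals mark matches. Hmgcs1, the synthase that makes HMG-CoA, has its window at chr13:119690101-119690350 (plus strand), with a sterol regulatory element and 3 CCAAT matches. The window of Mvd, which decarboxylates mevalonate diphosphate, is chr8:122443423-122443672 (minus strand). Ebp, a sterol isomerase, is covered by chrX:8193513-8193762 (minus strand), and Sc5d, a sterol desaturase, by chr9:42264301-42264550 (minus strand). For Abca1, which passes cholesterol to lipoproteins, it is chr4:53159896-53160145 (minus strand). No exon of the GENCODE M21 annotation overlaps any of the 5 windows.
Hmgcs1: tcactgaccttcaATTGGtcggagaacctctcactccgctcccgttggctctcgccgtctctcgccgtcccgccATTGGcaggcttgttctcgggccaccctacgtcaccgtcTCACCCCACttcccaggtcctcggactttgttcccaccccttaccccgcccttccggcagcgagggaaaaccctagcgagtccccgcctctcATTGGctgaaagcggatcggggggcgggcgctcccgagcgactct
Mvd: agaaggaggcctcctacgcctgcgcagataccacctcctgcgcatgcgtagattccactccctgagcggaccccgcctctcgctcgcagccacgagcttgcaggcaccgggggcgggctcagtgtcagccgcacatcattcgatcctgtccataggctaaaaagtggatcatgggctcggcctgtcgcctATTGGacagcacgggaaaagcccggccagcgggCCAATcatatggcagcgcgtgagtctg
Ebp: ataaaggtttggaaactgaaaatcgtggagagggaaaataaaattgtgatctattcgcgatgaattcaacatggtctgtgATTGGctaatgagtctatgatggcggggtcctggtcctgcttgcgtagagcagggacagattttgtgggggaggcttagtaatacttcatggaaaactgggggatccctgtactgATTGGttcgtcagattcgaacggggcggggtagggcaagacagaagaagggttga
Sc5d: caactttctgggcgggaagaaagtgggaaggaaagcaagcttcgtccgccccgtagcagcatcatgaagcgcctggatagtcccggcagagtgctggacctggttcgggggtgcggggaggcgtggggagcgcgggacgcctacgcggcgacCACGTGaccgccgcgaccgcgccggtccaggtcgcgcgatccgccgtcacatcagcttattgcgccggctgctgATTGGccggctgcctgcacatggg
Abca1: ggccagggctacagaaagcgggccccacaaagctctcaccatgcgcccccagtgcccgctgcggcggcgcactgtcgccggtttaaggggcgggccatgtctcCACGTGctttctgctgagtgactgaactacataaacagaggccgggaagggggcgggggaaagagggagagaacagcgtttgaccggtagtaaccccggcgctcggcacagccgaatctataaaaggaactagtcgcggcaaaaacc
A CCAAT box stood in 14 of the 15 enzyme promoters in the table, the exception being Acat2. Of the 26 pathway genes, 20 had the box, against 37.5% of the 27025 genes in the table. Those without it were Abca1, Acat2, Apoe, Lrp1, Nr1h2 and Scap. The E-box stood in 6 of the 26, namely Abca1, Dhcr7, Hsd17b7, Insig1, Sc5d and Scap, against 6.86% of all genes. Hmgcs1 alone of the 26 held the sterol regulatory element as spelled, which 1.22% of all genes held. Hmgcs1 and Ebp both carry the CCAAT box and were both higher in oligodendrocytes than in astroglia, while Mvd also carries it and was higher in astroglia.

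Cells were assigned by marker genes, and no cell annotation of the authors was used here. A cell counted as astroglial-like, oligodendrocyte-like or endothelial-like when at least 3 of its molecules (UMIs, unique molecular identifiers) came from the markers of that class and these made up at least 75% of all its marker UMIs. Of 7433 barcodes, 6323 passed the cell filter and 5581 fell into these 3 classes, which are named below without the suffix. The libraries numbered 1 were nearly all endothelial (728, 452 and 398 endothelial cells in the order control, GlastiKO and ECiKO, with at most 6 astroglial and 1 oligodendrocyte cells). Those numbered 2 held 411, 413 and 173 astroglial cells, 450, 603 and 1810 oligodendrocytes and 46, 65 and 21 endothelial cells. A Glast+ sort was labelled as neural stem and progenitor cells, yet the most frequent class in each library numbered 2 was the oligodendrocyte. Library totals ran from 1735247 to 14859187 UMIs, and the library labelled ECiKO replicate 2 was shallow, with a median of 784.5 UMIs per oligodendrocyte against 15802 in control and 17623 in GlastiKO. The libraries shared 5 barcodes, 1 in each of 5 pairs. Levels are given as CPM (counts per 1000000 UMIs), from the UMIs summed over the cells of a class in a library, in the order control, GlastiKO, ECiKO and for replicate 2 unless stated.

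The targeted gene did not follow the labels. Gja1 stood at 93.7 and 109 CPM in endothelial cells of the control libraries numbered 1 and 2, at 144 and 132 in those labelled GlastiKO, and at 235 and 209 in those labelled ECiKO. In astroglia it stood at 2480, 2487 and 2242 CPM. It was thus no lower in endothelial cells labelled ECiKO, nor in astroglia labelled GlastiKO, than in control. Counts at the 3′ end need not fall when another part of a gene is deleted, and the deleted part is not given in the labels, so the group names below stand only for labels.

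The first question was how synthesis, uptake and efflux are divided among the 3 classes. The 18 enzymes together made up 2084, 2705 and 1964 CPM in astroglia and 1805, 1770 and 1549 CPM in oligodendrocytes. Endothelial cells held 309 to 576 CPM over the 6 libraries, below every astroglial and oligodendrocyte sum. Of the 18 enzymes, 16 were higher in astroglia than in endothelium and 16 were higher in oligodendrocytes than in endothelium (edgeR quasi-likelihood test on sums per library, Benjamini-Hochberg adjusted p under 0.05 over 12180 genes). Over all 32 genes, 24 were higher and 2 lower in astroglia, where 21.8% and 14.6% of all genes were called, with a median log2 difference of 2.39 against 0.32 for all genes. For oligodendrocytes 23 were higher and 2 lower, where 28.3% and 15.9% of all genes were called, with medians of 2.24 and 0.52. With DESeq2, which differs in scaling and in test, the all-gene median for oligodendrocytes minus endothelium moved from 0.52 to 0.09. The all-gene split went from 3442 higher and 1940 lower to 2368 and 2361. With edgeR on UMI totals alone, without its TMM scaling factors, an alternative chosen after seeing the data, it went to 1919 and 3009, with 20 pathway genes higher and 2 lower. For astroglia the all-gene split went from 2660 and 1782 to 2135 and 2258, with 23 pathway genes higher and 2 lower. These differences rest on the few endothelial cells of the libraries numbered 2. Without GlastiKO replicate 2, 19 pathway genes were higher in each comparison, where 1591 (astroglia) and 2238 (oligodendrocytes) of 10712 genes were higher. Without the shallow ECiKO replicate 2, 23 were higher and 2 lower in each. Of 11935 genes, 2468 were then higher and 1727 lower in astroglia, and 3107 and 1860 in oligodendrocytes.

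Hmgcs1 shows the endothelial gap. Its endothelial level was 33.5, 42.5 and 105 CPM, the last from 4 UMIs, and 44.1, 31.1 and 43.5 CPM in the well filled libraries numbered 1. In astroglia it was 185, 310 and 264 CPM and in oligodendrocytes 418, 395 and 311, so neither glial class overlapped with endothelium. The log2 difference from endothelium was 2.74 ± 0.37 (SE) for astroglia and 3.74 ± 0.35 for oligodendrocytes (edgeR adjusted p 3.31e-09 and 5.83e-15). Msmo1, an oxidase that removes methyl groups from sterols, was at 50.2, 33.1 and 52.3 CPM in endothelium and at 703, 901 and 619 in astroglia. Where the endothelial count was 3 or fewer UMIs, the pooled ratio carries the error. Mvd was 16.1-fold higher in astroglia than in endothelium (95% exact interval 2.85 to 638) and Sqle, squalene epoxidase, 19.3-fold (6.59 to 93.9). Acat2, the thiolase that starts the pathway, had no endothelial UMI in these 3 libraries, so it was at least 3.39-fold higher in astroglia and at least 3.21-fold higher in oligodendrocytes, counting 3 UMIs over the pooled libraries as the floor. With Acat2 at that bound the medians above become 2.26 and 2.19. In the endothelial libraries numbered 1 Acat2 had 35 UMIs, or 6.43 CPM.

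Stard4, which carries sterol between membranes, was lower in both glial classes than in endothelium. It stood at 41.8, 99.2 and 131 CPM in the endothelial cells of the libraries numbered 2 and at 117, 100 and 124 in those numbered 1. Astroglia held 14.2, 23.9 and 14 CPM and oligodendrocytes 15.1, 13.3 and 14.2, all below the lowest endothelial value. The log2 difference was -1.87 ± 0.40 for astroglia and -1.85 ± 0.38 for oligodendrocytes (edgeR adjusted p 7.76e-05 and 3.13e-05). The oligodendrocyte call was lost without GlastiKO replicate 2 (-1.46, edgeR adjusted p 0.0663), and both were lost when cells were thinned to 1000 UMIs (-0.80 and -1.16).

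**Figure D1:**
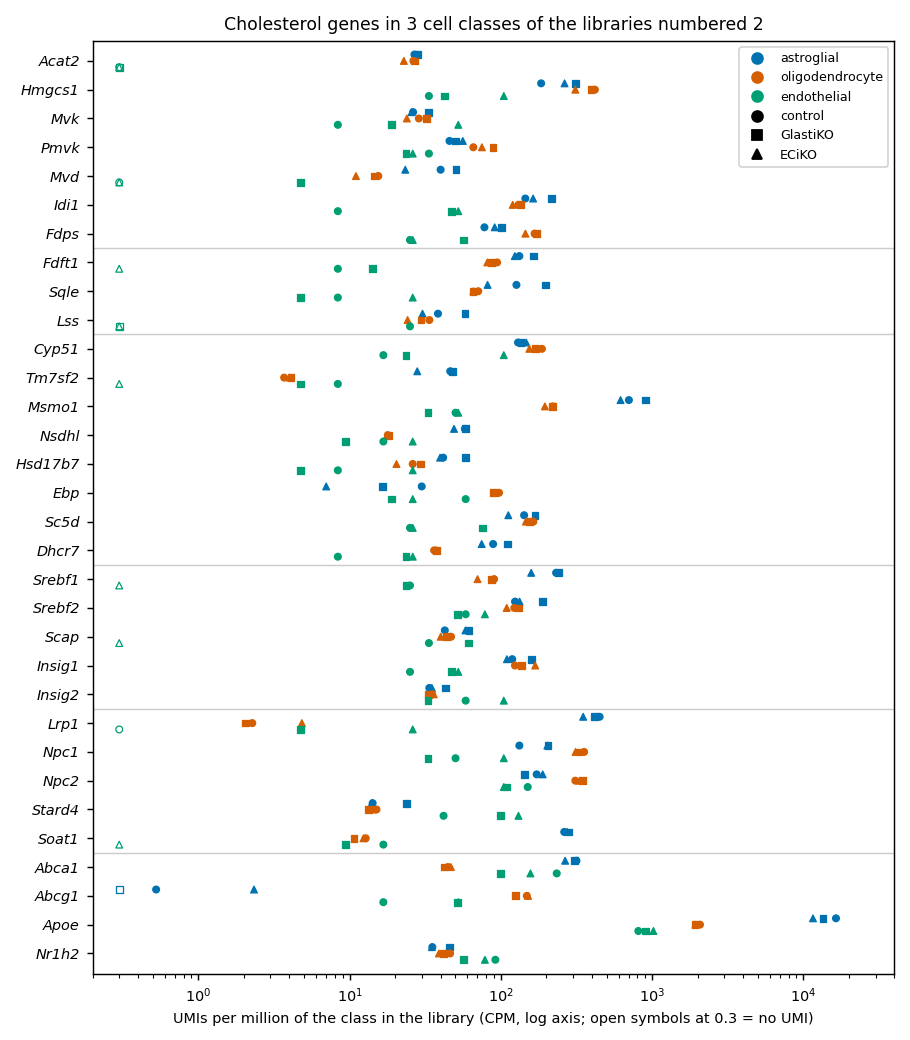
Level of each of the 32 genes (CPM of the class, log axis) in astroglial, oligodendrocyte and endothelial cells of the 3 libraries numbered 2, with open symbols at 0.3 for no UMI and grey lines between roles. Endothelial points lie to the left for most enzymes and to the right for Stard4, and the widest gaps between astroglia and oligodendrocytes are those of Lrp1, Soat1, Abcg1 and Tm7sf2.

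Between the 2 glial classes, of the 32 genes 12 were higher in astroglia and 11 higher in oligodendrocytes, and 9 did not pass (edgeR adjusted p under 0.05). The background was high, with 34.8% of all 12180 genes higher and 35.4% lower, so the count is close to the background and is no result about the pathway, and the median log2 difference was -0.07 against -0.005 for all genes. With DESeq2, whose scaling and test both differ, the all-gene median shifted by 0.29 towards astroglia. The all-gene split moved from 4242 higher and 4314 lower to 4435 and 2831, and the 32 genes split 13 to 7. On UMI totals alone the all-gene median was 0.39, the split 5529 to 3140 and that of the 32 genes 15 to 7, with no called gene changing sign. The CPM are on UMI totals, so a small difference below can have the opposite sign to its CPM. Without the shallow ECiKO replicate 2 they split 13 to 10. Values below are edgeR log2 differences, astroglial minus oligodendrocyte, with their SE.

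Before squalene, oligodendrocytes held more of 3 of 7 enzymes, where 35.4% of all genes were lower in astroglia. Hmgcs1 was at -1.01 ± 0.19 (edgeR adjusted p 5.94e-06), and its lowest oligodendrocyte value, 311 CPM, lay next to its highest astroglial value, 310. Pmvk, phosphomevalonate kinase, was at 45.8, 50.1 and 56 CPM in astroglia and 65.8, 88.7 and 75 in oligodendrocytes, without overlap (-1.03 ± 0.17). Fdps, which makes farnesyl diphosphate, was at 77.9, 101 and 91.1 CPM against 167, 172 and 145 (-1.28 ± 0.17). These 3 genes, picked by the test on the same sums, were higher in every oligodendrocyte sum than in every astroglial sum. Mvd went the other way, with 40.0, 50.5 and 23.4 CPM in astroglia and 15.5, 14.6 and 11.0 in oligodendrocytes (1.12 ± 0.21, edgeR adjusted p 2.98e-06). Acat2, mevalonate kinase Mvk and the isomerase Idi1 did not pass, with differences of -0.32, -0.41 and 0.02. On UMI totals these were 0.09, -0.005 and 0.43 by edgeR, so Acat2 changes sign with the scaling and Idi1 passes (adjusted p 0.0153).

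At squalene, the classes were closer. Sqle was at 127, 198 and 81.7 CPM in astroglia and 70.9, 65.5 and 65.9 in oligodendrocytes (0.63 ± 0.17, edgeR adjusted p 0.00103). Sqle was higher in astroglia in 3 of 3 libraries, but its call was lost without GlastiKO replicate 2 (0.33, edgeR adjusted p 0.223). Squalene synthase Fdft1 (0.28 ± 0.16) and lanosterol synthase Lss (0.17 ± 0.20) did not pass, but both did on UMI totals (0.69 and 0.57).

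After lanosterol, all 8 enzymes passed, 5 higher in astroglia and 3 in oligodendrocytes. Of all genes, 34.8% were higher in astroglia and 35.4% in oligodendrocytes. Tm7sf2, a sterol reductase, was at 46.3, 47.8 and 28 CPM in astroglia and 3.70, 4.09 and 4.03 in oligodendrocytes (3.04 ± 0.26, edgeR adjusted p 6.61e-17). Msmo1 stood at 221, 220 and 196 CPM in oligodendrocytes, below the lowest astroglial value of 619 (1.38 ± 0.20). Nsdhl, which acts with it in removing methyl groups, was at 57.9, 58.3 and 49.0 CPM against 17.9, 18 and 17.7 (1.25 ± 0.19). Dhcr7, a reductase of the last steps, gave 0.93 ± 0.16 and the ketoreductase Hsd17b7 0.46 ± 0.19. The Hsd17b7 call was lost without control replicate 2 (adjusted p 0.0660 by edgeR) and without GlastiKO replicate 2 (0.170). Ebp had the widest gap in the other direction, with 30.0, 16.5 and 7.01 CPM in astroglia and 97.4, 89.4 and 91.7 in oligodendrocytes (-2.59 ± 0.21, edgeR adjusted p 1.31e-17). Cyp51, the lanosterol demethylase, and Sc5d were also lower in astroglia (-0.73 ± 0.17 and -0.53 ± 0.17), but DESeq2 lost the Cyp51 call (-0.43, adjusted p 0.186) and the Sc5d call was lost both there (-0.26) and without control replicate 2 (-0.49). Both were lost on UMI totals too (-0.32 and -0.12). The successive steps thus had their higher levels in different classes, with Tm7sf2, Msmo1 and Nsdhl on the astroglial and Ebp on the oligodendrocyte side. With most genes called in this comparison, such a split is no result about the pathway.

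Among the regulators, Srebf1 was higher in astroglia and Insig1 lower. Srebf1, whose products mainly drive fatty acid synthesis, was at 232, 239 and 159 CPM in astroglia and 90.2, 86.6 and 70.2 in oligodendrocytes (0.95 ± 0.16, edgeR adjusted p 4.72e-07). Insig1, a brake on SREBP processing, differed by -0.50 ± 0.17, a call lost with DESeq2 (-0.25), on UMI totals (-0.09), without control replicate 2 (-0.53) and without ECiKO replicate 2 (-0.24). Srebf2, the gene of SREBP-2, was at 124, 189 and 133 CPM in astroglia and 123, 131 and 109 in oligodendrocytes and did not pass (-0.12 ± 0.16). Its CPM were higher in astroglia in 3 of 3 libraries, and on UMI totals the difference was 0.29 and did not pass either. Scap (-0.15 ± 0.18) and Insig2 (-0.26 ± 0.19) did not pass and also changed sign on UMI totals (0.26 and 0.15).

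Of the 5 genes of uptake, transport and storage, 2 were higher in astroglia, 2 were higher in oligodendrocytes and Stard4 did not pass. The shares of all genes were 34.8% and 35.4%. Lrp1, a receptor that takes up ApoE particles, was at 450, 416 and 350 CPM in astroglia and 2.27, 2.05 and 4.84 in oligodendrocytes (6.82 ± 0.24, edgeR adjusted p 2.17e-35). Over astroglia and endothelium pooled, its ratio was 78.3 (95% exact interval 21.7 to 647), with 2 endothelial UMIs. Soat1, which esterifies cholesterol for storage, was at 263, 280 and 276 CPM in astroglia and 12.8, 10.7 and 12.4 in oligodendrocytes (4.12 ± 0.18). The pair that lets cholesterol out of lysosomes ran the other way. Npc1 was at 133, 205 and 203 CPM in astroglia and 355, 329 and 312 in oligodendrocytes (-1.32 ± 0.19), and Npc2 at 173, 143 and 189 against 311, 347 and 333 (-1.40 ± 0.19). None of these 4 genes had overlapping classes, but the same sums gave their calls, so this adds no separate result.

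The efflux transporters were split between the classes. Abca1 was at 316, 307 and 266 CPM in astroglia and 44.8, 42.1 and 46.8 in oligodendrocytes (2.34 ± 0.17, edgeR adjusted p 2.1e-19), with endothelium between at 234, 99.2 and 157. Oligodendrocytes were lower than endothelium in Abca1 by -1.08 ± 0.28, a call lost without control replicate 2 (-0.69, edgeR adjusted p 0.196). Abcg1, which exports cholesterol to particles that already carry lipid, had 2 UMIs in all the astroglial cells and 2946 in the oligodendrocytes of the 3 libraries. The pooled oligodendrocyte to astroglial ratio was 309 (95% exact interval 85.4 to 2550). Its oligodendrocyte level was 148, 124 and 151 CPM, and endothelium held 16.7, 51.9 and 52.3. Astroglia were thus also lower than endothelium, whose pooled level was 91.5-fold that of astroglia (95% exact interval 21.3 to 824). Apoe, the lipoprotein that accepts this cholesterol, was at 16435, 13496 and 11584 CPM in astroglia and 2073, 1922 and 1934 in oligodendrocytes (2.39 ± 0.30, edgeR adjusted p 8.9e-11). Nr1h2, a nuclear receptor that senses oxysterols, differed by -0.52 ± 0.19, a call lost with DESeq2 (-0.23), on UMI totals (-0.11) and without control replicate 2 (-0.34). Endothelial Nr1h2, at 92.0, 56.7 and 78.5 CPM, lay above every glial value, but neither difference from endothelium passed (-0.55 and -0.03). RNA of other cells was present in each class: 6 astroglial genes kept out of the gate stood in oligodendrocytes at a median of 0.357%, 0.310% and 0.900% of their astroglial level. The highest of the 6 was at 9.70%, 5.93% and 8.42%, and oligodendrocyte Apoe stood at a higher share of its astroglial level in each library. The part of such RNA in the Apoe level was not tested.

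**Figure D2:**
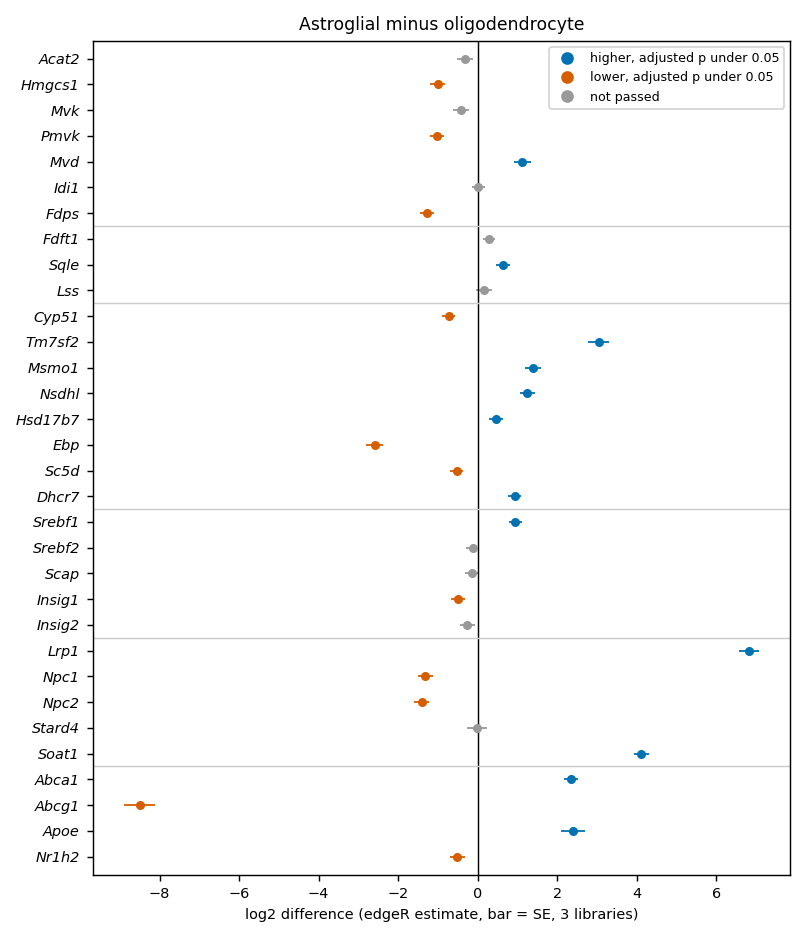
Log2 difference, astroglial minus oligodendrocyte, of each gene with its SE from 3 libraries. Points right of 0 are higher in astroglia: Lrp1 (6.82), Soat1 (4.12) and Tm7sf2 (3.04) lie far right, Abcg1 (-8.50) and Ebp (-2.59) far left, and the 7 enzymes before squalene lie between -1.28 and 1.12.

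A fixed list of 34 neighbouring genes, for fatty acid synthesis, other lipoprotein receptors, sterol transfer and oxysterols, was tested in the same fits. Between astroglia and oligodendrocytes, 15 of 33 tested were higher and 14 lower by edgeR, against 34.8% and 35.4% of all genes. Those with the smallest adjusted p included Lcat, which esterifies cholesterol on lipoproteins (6.15), the ApoE receptor gene Lrp8 (7.13), the oxysterol hydroxylase gene Cyp7b1 (6.95) and the apolipoprotein gene Clu (7.10), all higher in astroglia. Those lower in astroglia included the receptor gene Vldlr (-3.90), the transporter gene Abca2 (-3.63) and Sort1 (-2.29). Against endothelium, 17 were higher and 4 lower in astroglia (21.8% and 14.6% of all genes), and 18 higher and 4 lower in oligodendrocytes (28.3% and 15.9%). The endothelial side included Scarb1, the HDL receptor gene, which was lower in astroglia by -2.79 and in oligodendrocytes by -3.50, and Lipa, the lysosomal lipase gene (-2.11 and -0.77). Vldlr had no endothelial UMI in the libraries numbered 2 and was at least 26.2-fold higher in oligodendrocytes there. In the endothelial libraries numbered 1 it had 3 UMIs, or 0.551 CPM.

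Within oligodendrocytes, mature cells with Klk6 were compared with those with Il33. Both genes mark states of mature oligodendrocytes, and a cell was counted where it held a UMI of one and none of the other: 61, 80 and 175 Klk6 cells and 311, 417 and 687 Il33 cells. Enzymes of synthesis were higher in Klk6 cells. Of the 17 enzymes tested, 11 were higher and 0 lower, with a median log2 difference of 0.40, against -0.01 over all 9487 genes, of which 10.8% were called higher and 9.88% lower (edgeR). Over the 30 pathway genes tested 12 were higher and 3 lower. DESeq2 called 7 higher and 2 lower, and without GlastiKO replicate 2 edgeR called 9 and 2, while without the shallow ECiKO replicate 2 it called 12 and 3. Klk6 cells were somewhat deeper, with median UMIs of 20680, 22997.5 and 1155 against 15643, 17118 and 955 in Il33 cells, and the part of depth was not tested.

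Sqle had the largest gap among the enzymes. It was at 109, 114 and 137 CPM in Klk6 cells and 59.4, 52.9 and 43.2 in Il33 cells (1.08 ± 0.11, edgeR adjusted p 7.95e-09). Idi1 was at 205, 235 and 186 CPM against 107, 111 and 96.3 (0.95 ± 0.08), and Hmgcs1 at 617, 601 and 449 against 361, 356 and 254 (0.72 ± 0.06, edgeR adjusted p 2.8e-11). For these 3 genes, named for their differences in the same sums, every Klk6 value exceeded every Il33 value. Smaller differences of 0.27 to 0.76 passed for Pmvk, Mvd, Fdps, Fdft1, Cyp51, Msmo1, Ebp and Sc5d, of which Pmvk, Mvd and Fdps lost the call with DESeq2 and without GlastiKO replicate 2, and Ebp with DESeq2. Tm7sf2 and Lrp1 were too low to test.

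The genes lower in Klk6 cells were a regulator pair and the lipoprotein. Apoe was at 569, 497 and 448 CPM in Klk6 cells and 2617, 2382 and 2614 in Il33 cells, a log2 difference of -2.37 ± 0.06 (edgeR adjusted p 9.03e-23) and the largest of the 30. Insig1 was at 91.1, 120 and 107 CPM against 126, 143 and 164 (-0.46 ± 0.09), and Srebf1 differed by -0.52 ± 0.11, a call lost with DESeq2 (-0.48) and without GlastiKO replicate 2 (-0.32). Abcg1 was higher by 0.33 ± 0.08, a call lost with DESeq2. Astroglial markers kept out of the gate summed to 80.0, 78.2 and 105 CPM in Klk6 cells and 183, 132 and 188 in Il33 cells, and their part in the Apoe difference was not tested. The summed astroglial gate markers were 188, 216 and 199 CPM in Klk6 cells against 150, 130 and 251 in Il33 cells, with no common direction over the libraries. Of the neighbouring genes 7 of 25 were higher, among them Apod (1.16), the sterol hydroxylase gene Cyp27a1 (1.68) and Acaca (0.57). The 3 lower were Erlin2 (-0.81), Elovl6 (-0.52) and Scd1 (-0.40).

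**Figure D3:**
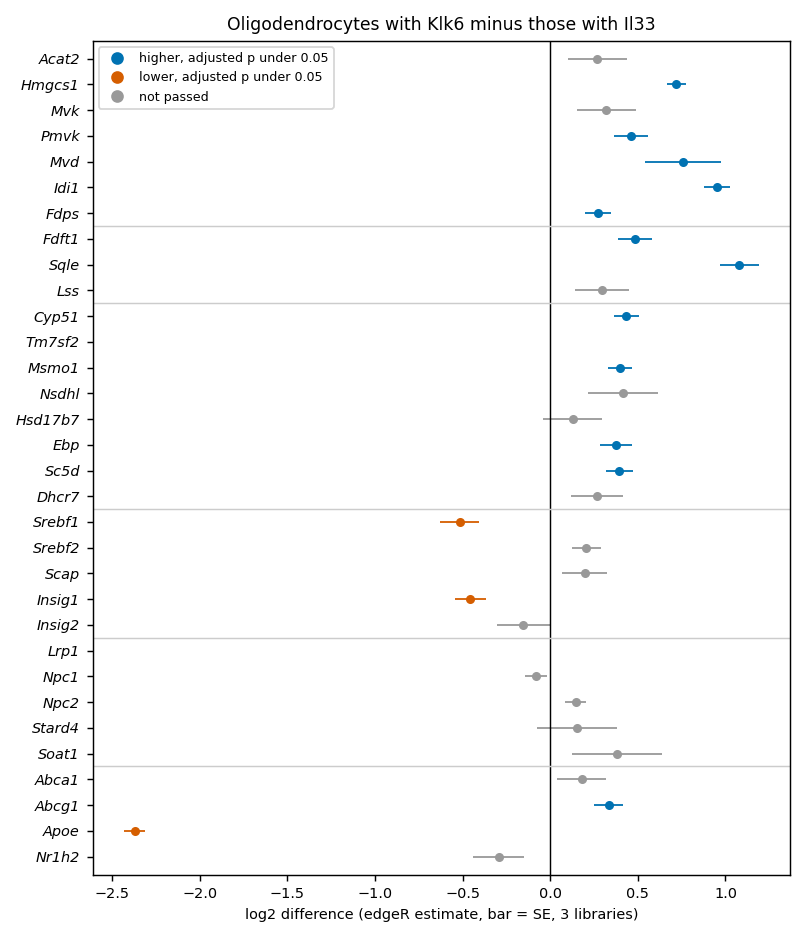
Log2 difference of each gene, oligodendrocytes with Klk6 minus those with Il33, with its SE from 3 libraries. The 17 tested enzymes all lie to the right of 0, up to 1.08 for Sqle, and Apoe lies far left at -2.37.

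Within astroglia, cells with Agt were compared in the same way with cells with Lhx2, 2 genes that mark astroglia of different brain regions. There were 247, 109 and 61 Agt cells and 58, 166 and 35 Lhx2 cells. Few pathway genes passed. Of 31 tested, 3 were higher in Agt cells and 0 lower, against 6.68% and 7.61% of 7742 genes (edgeR). Ebp was at 40.9, 33.6 and 21.2 CPM in Agt cells and 6.08, 9.58 and 0 in Lhx2 cells (2.29 ± 0.50, adjusted p 0.002 by edgeR). Abca1 was at 348, 359 and 360 CPM against 246, 265 and 164 (0.73 ± 0.20), and Lrp1 at 481, 506 and 395 against 313, 393 and 273 (0.62 ± 0.18). The 2 states did not overlap in any of the 3 genes, which the test on the same sums had picked, so this is no separate result. The count of 3 is near the background. DESeq2 called 0 of the 31, and edgeR called 0 without control replicate 2 and 5 without GlastiKO replicate 2. The oligodendrocyte gate markers, in whose class Ebp is also high, summed to 86.8, 117 and 226 CPM in Agt cells and 36.5, 90.1 and 36.4 in Lhx2 cells, and their part in the Ebp difference was not tested. Of 25 neighbouring genes 5 were higher, led by Lcat (1.42), and Sort1 was lower (-1.01). Apod had the largest difference (5.47), but in control it stood at 14.7 and 18.2 CPM in the 2 states.

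The group comparison in oligodendrocytes had 1 library per group and therefore no replicate check and no test. A gene with at least 100 UMIs counted as higher or lower from a CPM ratio of 1.5-fold, and intervals cover counting error only. No pathway gene of 30 passed that fold in either the library labelled GlastiKO or that labelled ECiKO. Of all genes, 0.964% were higher and 1.05% lower in GlastiKO, and 0.947% and 1.77% in ECiKO. The median ratio of the 30 was 0.944 in GlastiKO against 0.988 for all genes, and 0.892 in ECiKO against 0.965.

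Single genes stayed close to control. Pmvk had the largest GlastiKO ratio, 1.35 (95% exact interval 1.21 to 1.51), from 65.8 and 88.7 CPM. Abcg1 was at 0.838 (0.772 to 0.910) and Apoe at 0.927 (0.908 to 0.947). In ECiKO the Hmgcs1 ratio was 0.743 (0.694 to 0.796), from 418 and 311 CPM, and it was 0.771 among barcodes of at least 3000 UMIs. Insig1 stood at 1.36 (1.23 to 1.51) over all barcodes but at 0.982 (0.854 to 1.13) among these deep ones, of which the library labelled ECiKO replicate 2 held 182 among its 1810 oligodendrocytes. With deep barcodes alone the ECiKO median of the pathway was 0.943 against 1.00 for all genes.

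In astroglia, more genes lay above control in the library labelled GlastiKO, again with 1 library per group. Of 29 genes with enough UMIs 5 were at least 1.5-fold higher and 0 lower, where 5.2% and 3.41% of all genes did, and 25 of the 29 ratios exceeded 1 against 56.4% of all genes. The median ratio was 1.26, against 1.03 for all genes. Hmgcs1 had a ratio of 1.68 (95% exact interval 1.48 to 1.92), from 185 and 310 CPM, Sqle of 1.56 (1.33 to 1.83) and Lss of 1.51 (1.12 to 2.04). The others were Srebf2 at 1.52 (1.30 to 1.80) and Npc1 at 1.55 (1.32 to 1.81). Idi1 reached 1.48 and Msmo1 1.28. Under TMM scaling 3 genes passed, Lss at 1.48 and Srebf2 at 1.49 no longer doing so. With cells thinned to 1000 UMIs Srebf2 was at 1.19 and Npc1 at 2.44. Apoe, in contrast, was at 0.821.

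The mix of astroglial states differed between the libraries, with 1 library per label. Agt cells were 60.1% of astroglia in control, 26.4% in GlastiKO and 35.3% in ECiKO, and Lhx2 cells 14.1%, 40.2% and 20.2%. A state was called from a UMI of 1 gene, so the shares also depend on depth. Within Agt cells the median pathway ratio of GlastiKO to control was 1.13 against 1.01 for all genes, and 0 of 19 genes passed 1.5-fold. Within Lhx2 cells it was 1.35 against 1.03, and 5 of 18 passed, namely Hmgcs1 (1.59), Sqle (1.51), Dhcr7 (2.04, from 1.22 to 3.63), Srebf2 (1.64) and Insig1 (1.56). Lss, with under 100 UMIs in each state, was at 1.11 in Agt and 0.995 in Lhx2 cells. Npc1 passed in neither state, at 1.25 in Agt and 1.15 in Lhx2 cells. Of all genes 3.8% were higher and 3.46% lower by that fold within Agt cells, and 6.88% and 6.96% within Lhx2 cells. Other markers moved too: the pericyte list summed to 87.3 CPM in control astroglia and 168 in GlastiKO, and the oligodendrocyte list to 75.8 and 102. Their part in the ratios was not tested.

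**Figure D4:**
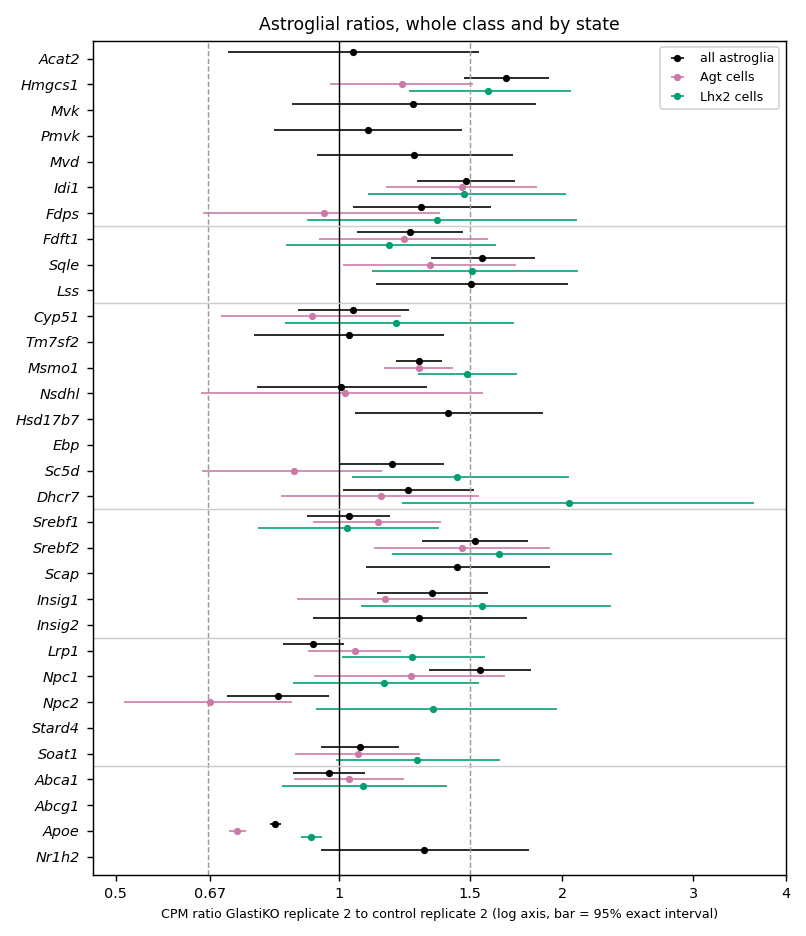
Ratio of GlastiKO replicate 2 to control replicate 2 (log axis, 95% exact interval) for each gene with at least 100 UMIs, over all astroglia and within Agt and Lhx2 cells. Dashed lines mark 1.5-fold. For Hmgcs1 the ratio is 1.68 over all astroglia and 1.59 in Lhx2 cells, with the Agt point below the dashed line.

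The library labelled ECiKO gave no common shift in astroglia. Of 22 genes 1 was higher and 2 lower, where 11.2% of all genes were higher and 7.59% lower. Npc1 stood at 1.53 (95% exact interval 1.19 to 1.96), from 133 and 203 CPM, Sqle at 0.644 (0.439 to 0.921) and Tm7sf2 at 0.605 (0.301 to 1.11). The Tm7sf2 interval includes 1, and its ratio was 1.30 within Agt cells and 0.235 within Lhx2 cells, the latter from 17 and 2 UMIs. Npc1 was at 1.48 within Agt and 0.920 within Lhx2 cells. Apoe was at 0.705 and Srebf1 at 0.684. Under TMM scaling 0 were higher and 4 lower, and the split of all genes turned from 448 higher and 305 lower to 311 and 425. The oligodendrocyte marker list summed to 168 CPM in these astroglia, against 75.8 in control, and its part was not tested.

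**Figure D5:**
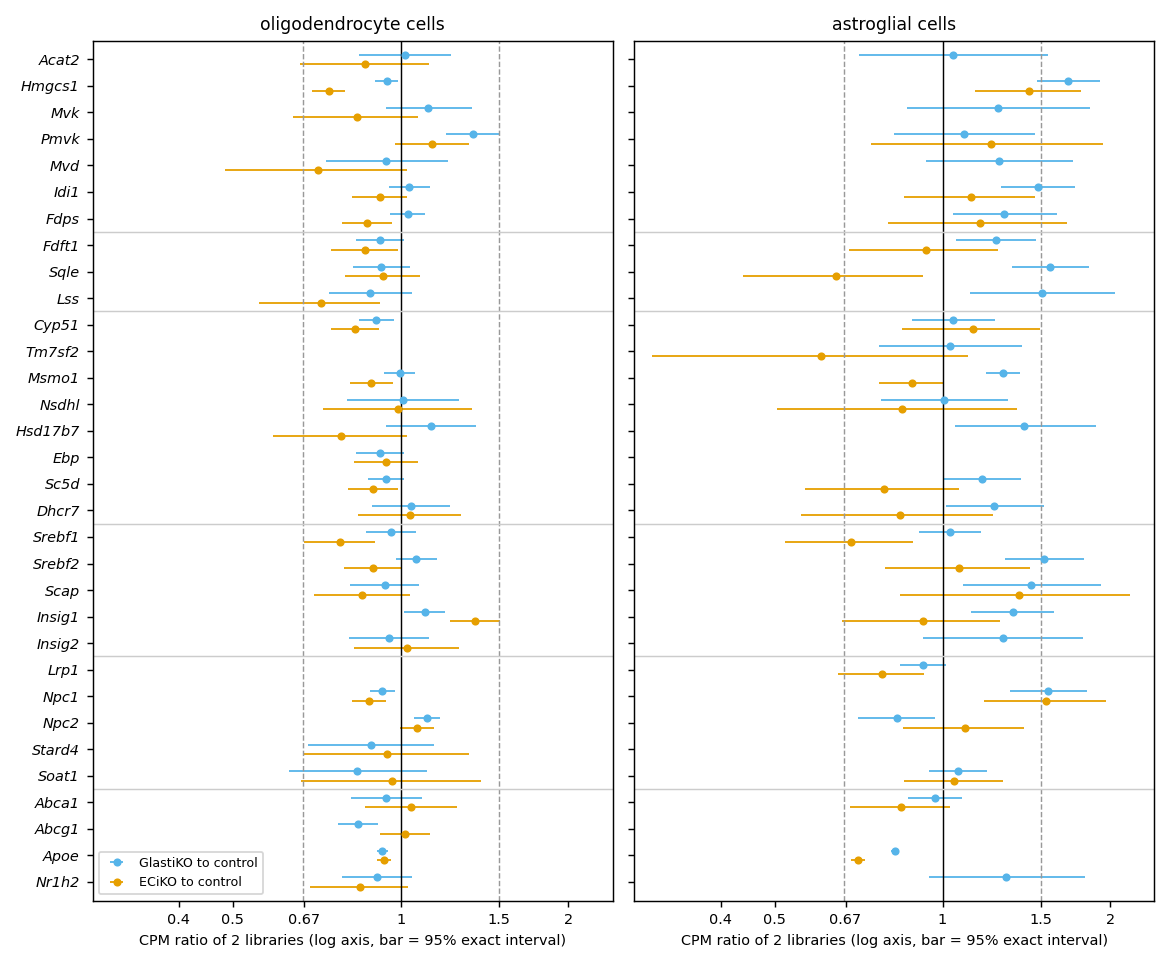
Ratio to control of each gene with at least 100 UMIs in oligodendrocytes and astroglia (log axis, 95% exact interval of counting error, 1 library per group). Dashed lines mark 1.5-fold. In oligodendrocytes every point lies between the dashed lines, while in astroglia most GlastiKO points lie right of 1.

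Endothelial cells allowed a test, with 2 libraries per group, but the 2 were unlike. Those numbered 1 held 728, 452 and 398 endothelial cells and those numbered 2 held 46, 65 and 21. The fit had group alone, so any difference between these kinds of library counted as spread. Of 24 genes tested 0 passed in either group, where 0.092% of 8693 genes were higher and 0.207% lower in GlastiKO, and 0.023% and 0.196% in ECiKO (edgeR). At an unadjusted edgeR p under 0.05 there was 1 of the 24 genes in GlastiKO, Msmo1, and 0 in ECiKO. Of all 8693 genes, 154 and 129 were under it, so these counts are near the background. DESeq2 called 0 pathway genes in both. Msmo1 was at 47.6 and 50.2 CPM in the control libraries, 21.6 and 33.1 in those labelled GlastiKO and 40.3 and 52.3 in those labelled ECiKO. Apoe was at 581 and 811 CPM in control, 509 and 907 in GlastiKO and 687 and 1020 in ECiKO, so the libraries numbered 2 were the higher in each group. Abca1 was at 101 and 234 CPM, 149 and 99.2, and 130 and 157. The SE of the log2 difference ran from 0.28 for Apoe to 0.69 for Fdft1 in GlastiKO, and Msmo1, at -0.95 ± 0.42, did not pass by edgeR. Of the neighbouring genes Ch25h, which makes an oxysterol, was higher in GlastiKO by 2.43 ± 0.56 (edgeR adjusted p 0.00592). Its counts were 17 and 0 UMIs in control and 65 and 1 in GlastiKO, that is 6.53 and 0 CPM against 41.3 and 4.72. The call thus rests almost wholly on the libraries numbered 1, with 1 per group. It was lost with DESeq2, which called 0 of 8693 genes higher in GlastiKO.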

How the data were processed

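Single cells were profiled with the 10x 3′ kit v3.1, 2 libraries per label group, per the labels' protocols. The authors deposited whole-number UMI counts per gene and barcode. The labels' protocols name Cell Ranger 5.0.0 and mm10, and the submitters' processing notes name Cell Ranger 2.1.1 and Seurat 4. No reads were reprocessed.

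The 32 genes, the lists and the markers were chosen with earlier results of these data known. All 32 were described, and of the neighbouring genes up to 4 per direction were named by smallest adjusted p. A gene that this rule would name is not reported here. Barcodes were dropped below 300 genes or above 20% mitochondrial UMIs. No doublet caller was run; the requirement that 75% of marker UMIs come from 1 class left out barcodes with mixed markers, and 332 kept barcodes passed no gate. Counts were summed per library and class, from at least 20 cells except where cells were thinned. These sums were tested with edgeR 4.0.16 (quasi-likelihood, TMM scaling, filterByExpr, Benjamini-Hochberg over all genes, library as a block for classes and states, group alone in endothelium). The class fit used 9 sums with 4 residual degrees of freedom. Intervals are exact conditional ones at 95% and, like the floor of 3 UMIs, cover counting error only. Whether replicates were separate mice is not stated beyond the word biological, so p-values refer to these libraries only. In the class and state fits, with library as a block, they measure how a difference varied over libraries that each carried another label. Variation by label and variation by replicate cannot be told apart there. In the endothelial group fit they measure the spread between libraries of the same label. Alternatives were DESeq2 1.42.0, TMM or total scaling, other gates and filters, thinning to 1000 UMIs, and leaving out each library. Thinning left 41, 56 and 12 endothelial cells in the libraries numbered 2, in the order control, GlastiKO and ECiKO. Deep barcodes alone, UMI totals in the class fit, single states and endothelial sums of the libraries numbered 1 were alternatives chosen after seeing the data. Only the class fit, for astroglia minus oligodendrocytes, was checked on simulated counts. Few genes differed between the simulated classes, so the check does not cover a difference in most genes, as found here. The other fits and the ratios were not simulated.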

Additional observations from a re-analysis of the deposited data

How the results depend on the processing

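No called gene of the pathway changed sign in any alternative of the tested comparisons. Calls held in every setting for 16 of 23 genes between astroglia and oligodendrocytes, 16 of 26 between astroglia and endothelium, 17 of 25 between oligodendrocytes and endothelium, 9 of 15 between Klk6 and Il33 cells, and 0 of 3 between Agt and Lhx2 cells. With DESeq2 the pathway genes lower in astroglia than in oligodendrocytes numbered 7 (also 7 on UMI totals without scaling factors, added after seeing the data), those higher in Klk6 cells 7 and those higher in Agt cells 0. DESeq2 called 965 genes in all for Klk6 minus Il33 (1964 with edgeR), 553 for Agt minus Lhx2 (1106), and 2 in each endothelial group comparison (26 for GlastiKO and 19 for ECiKO). Thinning called 4789 genes for astroglia minus oligodendrocytes (8556), and 2274 and 2866 for astroglia and oligodendrocytes minus endothelium (4442 and 5382), with 1 pathway gene lower in each of the last 2. Endothelial sums from the libraries numbered 1, an alternative added after seeing the data, gave 8081 and 9225 calls. The glial sums there came from the libraries numbered 2, and label group, not library, was the block. Class and kind of library therefore cannot be told apart in that fit. Of 12753 genes tested, 4443 were higher in astroglia and 5107 in oligodendrocytes, with 27 pathway genes higher in each. These backgrounds exceed those of the main fit (2660 and 3442 of 12180), so 27 cannot be set directly beside 24 and 23.

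Leaving out 1 library at a time gave 2620 to 4195 calls for astroglia minus endothelium and 3504 to 4967 for oligodendrocytes minus endothelium, with 1 to 2 pathway genes lower in the latter. It gave 1079 to 1885 calls for Klk6 minus Il33, and 570 to 1151 for Agt minus Lhx2, with 0 to 5 pathway genes higher and 0 to 1 lower. In endothelium it gave 5 to 34 calls for GlastiKO and 6 to 36 for ECiKO. Between groups, the endothelial deviations of libraries with the same number correlated at 0.0872, 0.0407 and 0.0571. Those numbered 1 were nearly all endothelial, and those numbered 2 held only 46, 65 and 21 endothelial cells. The correlations therefore cannot settle whether the numbers pair the libraries. With the number as a block the endothelial calls were 40 for GlastiKO and 31 for ECiKO, with 0 pathway genes among them. The estimated spread (biological coefficient of variation) was then 13.1%, against 17.3% without the block. Without a filter on low counts ECiKO gave 30 calls.

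In the oligodendrocyte ratios, thinning put 1 gene past 1.5-fold in each group (Insig1), and Klk6 cells alone also 1 (Mvk in GlastiKO, Abca1 in ECiKO). In astroglia labelled GlastiKO 3 genes were higher under TMM scaling and 0 within Agt cells, and Lss was at 0.995 within Lhx2 cells. Npc1 there was at 1.25 within Agt and 1.15 within Lhx2 cells and 2.44 thinned, and Srebf2 at 1.19 thinned. In astroglia labelled ECiKO 3 genes were higher with a stricter gate and 0 under TMM scaling, without the cell filter, thinned, or within either state. Lower there were 4 under TMM scaling and 1 with the stricter gate, without the cell filter or thinned, and Tm7sf2 stood at 1.30 within Agt and 0.235 within Lhx2 cells and Npc1 at 1.48 within Agt and 0.920 within Lhx2 cells. The cause of these changes was not tested.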
